A study of Mus musculus with 18 samples.

Results

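Collagens and laminins are structural proteins of the extracellular matrix, and their genes were described here across 18 mouse medulloblastomas, tumours of the cerebellum. The members were all genes whose symbol is Col or Lam followed by a chain name (Col4a1, Lama2 and the like) and that had a probe set with a single gene symbol on the array. This gave 54 genes, 44 collagen genes and 10 laminin genes, out of 19938 genes measured. RNA of each tumour had been hybridised to an Affymetrix mouse Gene ST 1.0 array, and values are on the log2 scale, so that a difference of 1 is a doubling. A probe set's level cannot be set against that of another probe set, so each gene is compared only with itself across arrays.

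The Ptch tumours comprised 4 arrays of NG-Ptch (numbered 1, 2, 4 and 5), 2 of GFD-Ptch and 4 of GFI-Ptch. The Smo tumours comprised 4 arrays of NG-Smo;Atoh1-CreER, and a further 4 were labelled GFD-Smo;GFAP-cre. NG, GFD and GFI are names of tumour subtypes that the labels do not spell out. Ptch tumours are named for Patched, the receptor that restrains Hedgehog signalling, and Smo tumours for Smoothened, the transducer that Patched holds back. The labels gave no allele, strain or age. Atoh1-CreER is a tamoxifen-dependent Cre recombinase driven from a gene of granule neuron progenitors, and GFAP-cre is a Cre driven from an astrocyte gene promoter that also acts in neural progenitors. All NG-Smo tumours had the first driver and all GFD-Smo tumours the second (the groups are written NG-Smo and GFD-Smo below), so subtype and driver cannot be told apart in them. GFI-Ptch replicate 4 was labelled as progressed from an earlier tumour in an immunodeficient NSG host and is called the transplanted tumour.

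Laminins are cross-shaped trimers of an alpha, a beta and a gamma chain that assemble into sheets under cells. Collagen IV forms another network that nidogens and perlecan tie to the laminin sheet, and together they make the basement membrane, which in brain surrounds blood vessels and lies under the pia. Fibrillar collagens (types I, II, III, V, XI, XXIV and XXVII) form the fibres of connective tissue, which in healthy brain is found mainly in meninges and vessel walls. The FACIT collagens sit on fibril surfaces, and the other families form beaded filaments, short chains or membrane-anchored chains.

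Before the results, 3 features of the arrays bear on them. Genes of the tissue and of Hedgehog signalling (Atoh1, Zic1, Barhl1, Gli1, Hhip and 6 others) had mean levels that ran from 11.06 to 11.73 over the arrays. The 11.06 was that of the transplanted tumour, and every other array was at 11.25 or above. The transplanted tumour and NG-Smo replicate 4 stood apart from their groups across all genes, and the calls without both are given below. The level of Y-linked genes went against the gender label on 3 arrays, the transplanted tumour and GFD-Smo replicates 2 and 3, and the effect of leaving each out was computed. Both GFD-Ptch arrays were labelled M, with a Y-linked level of 9.84. The 4 NG-Ptch arrays, labelled F or ND, had 5.40 to 5.47. Sex and subtype therefore cannot be told apart between GFD-Ptch and NG-Ptch. In GFD-Smo the Y-linked level was 10.05 in replicate 2 and 5.45 to 5.48 on the other arrays. In GFI-Ptch it was 10.16 in replicate 3 and 5.37 to 5.54 on the others. Sex by this level was thus uneven between GFD-Ptch and these groups as well. In NG-Smo the level was 9.93 and 9.88 in replicates 1 and 3 and 5.47 in replicates 2 and 4.

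The range of a member over the 18 arrays was under 1 for 43 of 54 members, against 82.8% of all genes. It reached 2 only for Lama5 (2.46) and Lama2 (2.14), and the next widest were Col12a1 (1.67), Lama1 (1.55), Lamc1 (1.19), Col18a1 (1.19) and Col20a1 (1.17). Of the 5 widest ranges, 4 were those of laminin genes. In a moderated F test for any difference among the 5 groups (limma, adjusted over all genes), 14 members (25.9%) were called at an adjusted p under 0.05, 7 collagen and 7 laminin genes, against 13.7% of all genes. These were Lama2, Lama3, Lama4, Lama5, Lamb1, Lamb2, Lamc1, Col1a1, Col1a2, Col3a1, Col5a2, Col4a1, Col4a2 and Col28a1. With Col10a1 and Col11a1, which were called in pairwise comparisons only, 16 members were called in some test on all 18 arrays, and 38 in none. Calls on all 18 arrays are those of the main fit, on the values as deposited, unless another setting is named.

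**Figure D1:**
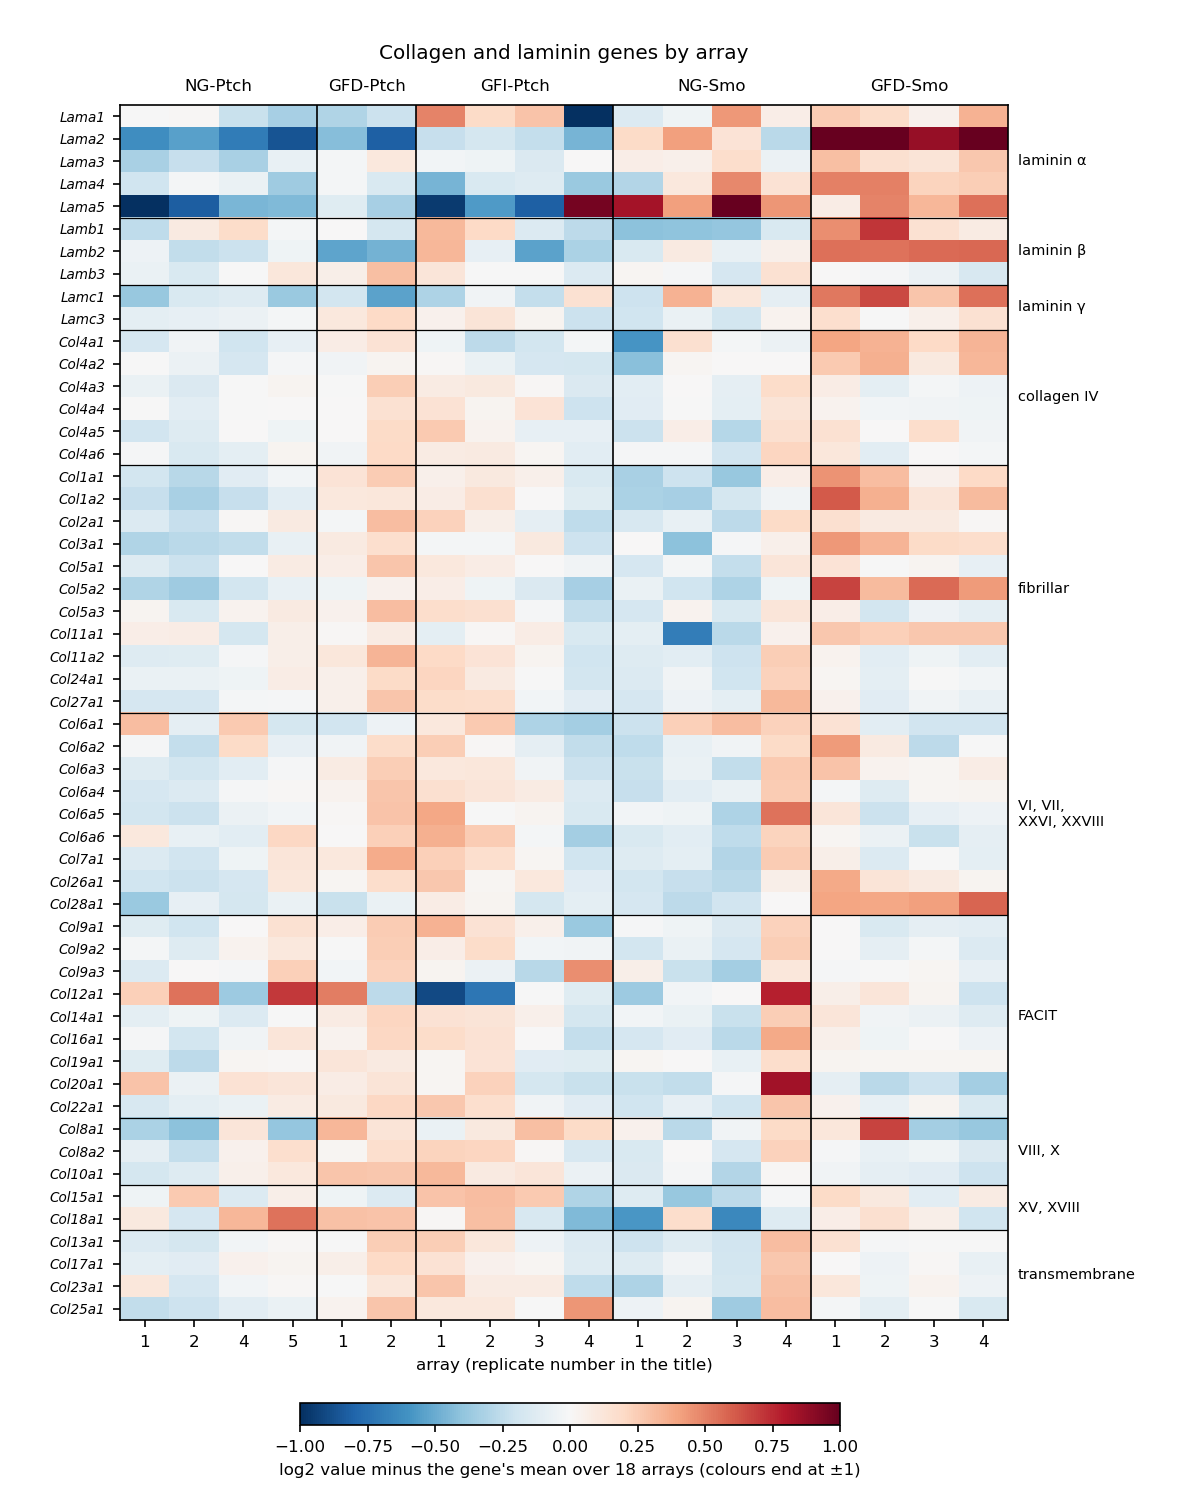
Deviation of each collagen and laminin gene (rows, by family) from its own mean over 18 arrays (columns, by group), on a log2 colour scale. The deviations of Lama2 and Lama5 are the strongest, and most collagen rows stay near 0 except for shared shifts of whole columns such as NG-Smo replicate 4.

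The laminin alpha chains, which give a laminin its receptor specificity, held the largest differences. Lama2 encodes the alpha chain of merosin, a laminin of muscle, peripheral nerve and brain vessels. Its values (probe set 10368409) were 7.90, 7.98, 7.82 and 7.66 in NG-Ptch replicates 1, 2, 4 and 5, and 8.10 and 7.71 in GFD-Ptch. They were 8.29, 8.34, 8.28 and 8.06 in GFI-Ptch, 8.71, 8.93, 8.66 and 8.26 in NG-Smo, and 9.78, 9.72, 9.39 and 9.80 in GFD-Smo. All GFD-Smo arrays lay above all others, and the NG-Smo arrays lay above all NG-Ptch arrays. Lama2 was 1.03 higher (SE 0.13, a fold of 2.05, adjusted p = 0.0003) in GFD-Smo than in NG-Smo, the largest of the called differences in that comparison. It was 1.77 higher in GFD-Smo than in GFD-Ptch (SE 0.16, a fold of 3.41, adjusted p = 1.34e-05) and 0.80 higher in NG-Smo than in NG-Ptch (SE 0.13, adjusted p = 0.0101). Within the Ptch tumours it did not pass the test, with differences of 0.06 (SE 0.16) for GFD minus NG and 0.40 (SE 0.13, adjusted p = 0.386) for GFI minus NG, although no GFI-Ptch array overlapped the NG-Ptch arrays.

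Lama5 encodes the alpha chain of laminins of mature vessels and many epithelia. Its values (probe set 10490384) were 8.67, 8.87, 9.23 and 9.25 in NG-Ptch and 9.57 and 9.36 in GFD-Ptch. GFI-Ptch had 8.74, 9.13, 8.88 and 10.65, the last in the transplanted tumour. NG-Smo had 10.52, 10.10, 11.12 and 10.13, and GFD-Smo 9.76, 10.19, 10.02 and 10.25. All 8 Smo arrays lay above every Ptch array except the transplanted tumour, which was above all GFD-Smo arrays. Lama5 was 1.47 higher in NG-Smo than in NG-Ptch (SE 0.33, a fold of 2.77, adjusted p = 0.0495). That call held without the transplanted tumour, GFI-Ptch replicate 1 or NG-Smo replicate 4, and ended without any other of the 18 arrays, at an adjusted p of 0.0526 to 0.145, with a difference of at least 1.25 each time. In GFD tumours the Smo minus Ptch difference was 0.59 (SE 0.41, adjusted p = 0.315), and GFD minus NG in Smo was -0.42 (SE 0.33, adjusted p = 0.686), so Lama5 and Lama2 did not share a direction in that comparison.

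The promoter window of Lama5 is shown since its levels had the widest range of all members. It holds the 250 bases before and the 50 bases after the start of a RefSeq transcript on build GRCm38.p6 (chr2:180225810-180226109, minus strand), read 5′ to 3′ on the gene's own strand. That start lies 45 bases inside the outermost start of the gene. The motifs searched were CCAAT and GGGCGG on either strand, in capitals here, and they do not overlap each other. The window holds GGGCGG 4 times and CCAAT not at all. The Lama2 window is not shown, since the start it uses lies 249 bases inside the gene.
Lama5: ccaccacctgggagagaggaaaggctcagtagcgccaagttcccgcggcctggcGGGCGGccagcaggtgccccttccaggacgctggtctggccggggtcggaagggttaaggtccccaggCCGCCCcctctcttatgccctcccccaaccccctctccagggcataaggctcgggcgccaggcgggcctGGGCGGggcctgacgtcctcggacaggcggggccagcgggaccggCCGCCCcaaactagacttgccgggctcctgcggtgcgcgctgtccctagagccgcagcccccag
Of the members, 40 had such a window, and 25 of the 40 (62.5%) held GGGCGG, against 38.2% of the windows of 27025 genes. The 27025 were all genes with a window, not only those measured on the arrays, and the shares among measured genes were not computed. CCAAT was in 14 of the 40 (35.0%), against 41.1% of all windows.

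Of the other alpha chains, Lama3, of epithelial laminin, had values of 6.77, 6.87, 6.77 and 7.02 in NG-Ptch and 7.17, 7.15, 7.27 and 7.04 in NG-Smo. The groups lay side by side without overlap, and the difference was 0.30 (SE 0.07, adjusted p = 0.0475). It ended without any 1 of 14 arrays, at an adjusted p of 0.0531 to 0.152, and held when the array left out was the transplanted tumour, replicate 3 of GFI-Ptch, replicate 5 of NG-Ptch or replicate 4 of NG-Smo. Lama4, the alpha chain of the endothelial basement membrane, had group means of 7.68 ± 0.15 (SD, n = 4) in NG-Ptch, 7.75 ± 0.10 (n = 2) in GFD-Ptch, 7.56 ± 0.16 (n = 4) in GFI-Ptch, 7.95 ± 0.32 (n = 4) in NG-Smo and 8.21 ± 0.16 (n = 4) in GFD-Smo. Lama4 differed among the groups (F test, adjusted p = 0.0223), but no pairwise comparison on all arrays called it. For GFD-Smo minus GFD-Ptch it was 0.46 (SE 0.17, adjusted p = 0.0722), and it passed without NG-Smo replicate 1 (0.0347) or 3 (0.0414). Lama1, an alpha chain of embryonic and pial basement membranes, was 7.52 in the transplanted tumour and 8.24 to 9.07 on all other arrays, and it was called in no test on all 18 arrays. Without the transplanted tumour it was called in the F test (adjusted p = 0.0282) and was 0.47 higher in GFD-Smo than in GFD-Ptch (adjusted p = 0.0322).

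Of the beta chains, Lamb2 encodes the chain of synaptic, vascular and kidney basement membranes. Its values (probe set 10588942) were 9.30, 9.29, 9.31 and 9.32 in GFD-Smo, 8.59, 8.84, 8.67 and 8.80 in NG-Smo, and 8.21 and 8.27 in GFD-Ptch. NG-Ptch had 8.69, 8.49, 8.53 and 8.70, and GFI-Ptch 9.08, 8.66, 8.21 and 8.43. The GFD-Smo arrays were above all others and close to each other, while the GFD-Ptch arrays were the lowest together with GFI-Ptch replicate 3. Lamb2 was 0.58 higher in GFD-Smo than in NG-Smo (SE 0.13, a fold of 1.49, adjusted p = 0.0152) and 1.06 higher than in GFD-Ptch (SE 0.16, a fold of 2.09, adjusted p = 0.000457). Lamb1, the beta chain found in most embryonic and adult laminins, had values (probe set 10395163) of 8.52, 8.77, 8.21 and 8.14 in GFD-Smo and 7.65, 7.65, 7.67 and 7.90 in NG-Smo. These groups did not overlap, and the difference was 0.69 (SE 0.15, a fold of 1.62, adjusted p = 0.012). The Ptch arrays lay between 7.79 and 8.38, inside the span of both Smo groups. Lamb3, of epithelial laminin, ranged over 0.47 and was called in no test of the main fit. After quantile normalization it was called lower in GFD-Smo than in GFD-Ptch (-0.185, limma, adjusted p = 0.0493).

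Lamc1, the gamma chain shared by most laminins, had values (probe set 10358816) of 9.94, 10.08, 9.69 and 9.97 in GFD-Smo and 9.23 and 8.88 in GFD-Ptch. NG-Smo had 9.21, 9.76, 9.53 and 9.32. GFD-Smo overlapped NG-Smo by 1 array of each and lay clear of all Ptch arrays, which spanned 8.88 to 9.56. Lamc1 was 0.86 higher in GFD-Smo than in GFD-Ptch (SE 0.16, a fold of 1.82, adjusted p = 0.00229), a call that ended without GFD-Ptch replicate 2 (adjusted p = 0.0677). Against NG-Smo the difference was 0.46 (SE 0.13) and missed the threshold (adjusted p = 0.0532), and 4 of the 18 arrays, when left out, brought it past the threshold: GFI-Ptch replicates 1 (0.0493) and 4 (0.0311), NG-Smo replicate 2 (0.0185) and GFD-Smo replicate 3 (0.0449). Lamc3 had a range of 0.42 over all arrays.

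**Figure D2:**
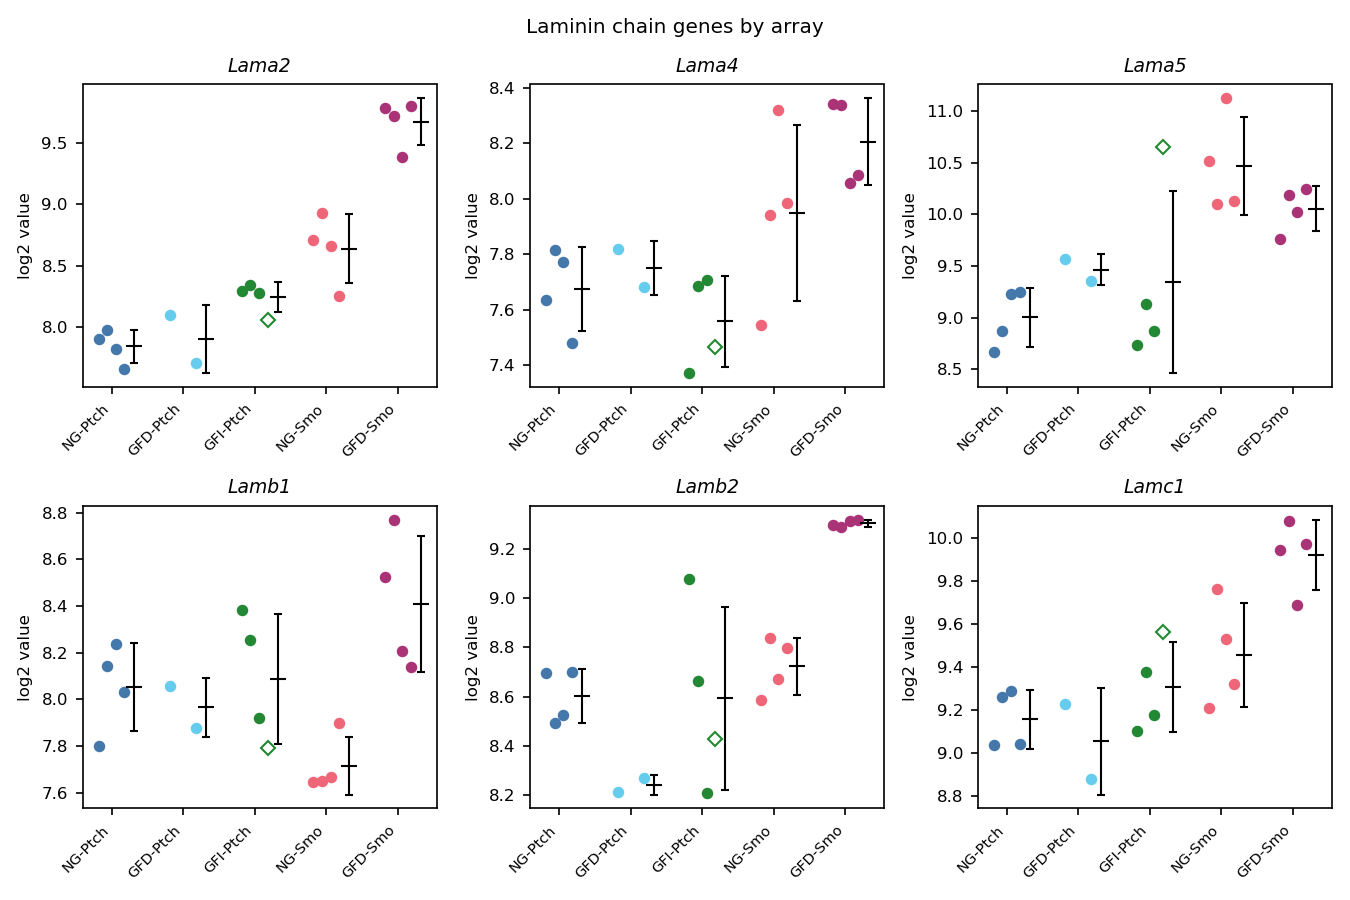
Log2 values of 6 laminin chain genes on each array, with the mean and SD of each group as a bar; the open diamond is the transplanted tumour. GFD-Smo is above all other arrays for Lama2 and Lamb2, and in Lama5 both Smo groups lie above the Ptch arrays except the transplanted tumour.

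In the collagen IV family, the chains Col4a1 and Col4a2, which form the network of nearly all basement membranes, were called between GFD-Smo and NG-Smo. The other 4 chains (Col4a3, Col4a4, Col4a5 and Col4a6), of specialised basement membranes such as that of the kidney, were called in no comparison. Col4a1 and Col4a2 lie head to head, and their windows share 78 bases (chr8:11312777-11312854), in capitals below as reverse complements of each other. They are shown because these neighbouring genes moved in the same direction. The Col4a1 window is chr8:11312777-11313076 on the minus strand, from a start 63 bases inside the outermost start of the gene, and the Col4a2 window chr8:11312555-11312854 on the plus strand, from the outermost start.
Col4a1: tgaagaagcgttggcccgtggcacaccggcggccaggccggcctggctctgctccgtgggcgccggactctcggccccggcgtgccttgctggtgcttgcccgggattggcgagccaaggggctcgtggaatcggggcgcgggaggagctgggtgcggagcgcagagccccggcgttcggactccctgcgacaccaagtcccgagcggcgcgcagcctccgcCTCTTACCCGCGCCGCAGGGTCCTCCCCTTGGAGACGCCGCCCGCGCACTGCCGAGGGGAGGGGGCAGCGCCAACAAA
Col4a2: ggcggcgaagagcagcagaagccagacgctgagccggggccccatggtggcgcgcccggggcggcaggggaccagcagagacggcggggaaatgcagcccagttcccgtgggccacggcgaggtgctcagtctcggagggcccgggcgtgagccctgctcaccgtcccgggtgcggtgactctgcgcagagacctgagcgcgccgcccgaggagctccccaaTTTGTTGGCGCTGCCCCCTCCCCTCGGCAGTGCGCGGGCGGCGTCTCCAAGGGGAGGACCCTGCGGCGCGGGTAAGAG
Col4a1 (probe set 10576973) had values of 9.13, 9.08, 8.94 and 9.07 in GFD-Smo and 8.15, 8.90, 8.72 and 8.68 in NG-Smo. Col4a2 (probe set 10570068) had 8.57, 8.67, 8.40 and 8.64 in GFD-Smo and 7.89, 8.32, 8.31 and 8.32 in NG-Smo. The groups did not overlap for either gene, and NG-Smo replicate 1 was the lowest of all 18 arrays for both. The Ptch arrays lay between 8.48 and 8.88 for Col4a1 and between 8.13 and 8.33 for Col4a2.

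Col4a1 was 0.45 higher (SE 0.12, a fold of 1.36, adjusted p = 0.036) and Col4a2 0.36 higher (SE 0.09, a fold of 1.28, adjusted p = 0.0277) in GFD-Smo than in NG-Smo. The Col4a1 call ended without NG-Smo replicate 4 (adjusted p = 0.0509) and without any 1 GFD-Smo array (0.105, 0.0947, 0.0542 and 0.0819 without replicates 1 to 4). The Col4a2 call ended without GFD-Smo replicate 1 (0.0701), 2 (0.0947) or 4 (0.0792). Against GFD-Ptch, the GFD-Smo arrays were higher by 0.21 (SE 0.14) and 0.27 (SE 0.11), and neither difference was called on all arrays, while that of Col4a2 passed without NG-Smo replicate 1 (adjusted p = 0.0313).

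Of the 11 fibrillar collagen genes, 5 were called between GFD-Smo and NG-Smo, all higher in GFD-Smo. Col1a1 and Col1a2 encode the chains of type I collagen. Col1a2 (probe set 10536220) had values of 9.14, 8.88, 8.65 and 8.84 in GFD-Smo and 8.20, 8.19, 8.35 and 8.49 in NG-Smo. The groups did not overlap, and the difference was 0.57 (SE 0.09, a fold of 1.48, adjusted p = 0.00195). Col1a1 (probe set 10380419) had 9.29, 9.14, 8.88 and 9.04 in GFD-Smo and 8.51, 8.62, 8.45 and 8.90 in NG-Smo. NG-Smo replicate 4 lay just above the lowest GFD-Smo array, and the difference was 0.46 (SE 0.10, a fold of 1.38, adjusted p = 0.013). The Ptch arrays spanned 8.55 to 9.09 for Col1a1, and both GFD-Ptch arrays (8.97 and 9.09) lay inside the GFD-Smo span. For Col1a2 the Ptch arrays spanned 8.20 to 8.68, and GFI-Ptch replicate 2 (8.68) lay above the lowest GFD-Smo array.

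Col5a2, a chain of type V collagen that starts fibril assembly, had values (probe set 10354309) of 8.07, 7.71, 7.95 and 7.82 in GFD-Smo and 7.32, 7.19, 7.08 and 7.35 in NG-Smo. All GFD-Smo arrays lay above all 14 others, whose highest was 7.46. Col5a2 was 0.65 higher than in NG-Smo (SE 0.10, a fold of 1.57, adjusted p = 0.0008) and 0.50 higher than in GFD-Ptch (SE 0.12, adjusted p = 0.0106). The second call ended without GFD-Ptch replicate 1 (0.0806) or 2 (0.0639). Col3a1, the collagen of vessel walls and soft tissue, had values (probe set 10346015) of 8.76, 8.66, 8.52 and 8.50 in GFD-Smo and 8.33, 7.91, 8.31 and 8.38 in NG-Smo. The groups did not overlap, although GFD-Ptch at 8.41 and 8.49 came close to GFD-Smo. The difference of 0.38 (SE 0.10, adjusted p = 0.0347) lost its call without NG-Smo replicate 2 (0.0709) or GFD-Smo replicate 1 (0.124), 2 (0.101) or 3 (0.0544).

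Col11a1, a chain of type XI collagen that is best known from cartilage, had values (probe set 10495449) of 9.09, 9.06, 9.09 and 9.09 in GFD-Smo and 8.72, 8.13, 8.55 and 8.86 in NG-Smo. The GFD-Smo arrays were nearly equal and above all others, and the difference was 0.52 (SE 0.12, a fold of 1.43, adjusted p = 0.0154). The remaining 6 fibrillar genes (Col2a1, Col5a1, Col5a3, Col11a2, Col24a1 and Col27a1) were called in no comparison of the main fit. In the beaded-filament and anchoring family of 9 genes, 1 was called. Col28a1, a collagen known from peripheral nerve, had values (probe set 10543082) of 8.06, 8.06, 8.08 and 8.26 in GFD-Smo and 7.51, 7.41, 7.48 and 7.68 in NG-Smo. All GFD-Smo arrays were above all others, whose highest was 7.75. Col28a1 was 0.60 higher than in NG-Smo (SE 0.08, a fold of 1.51, adjusted p = 0.000426) and 0.59 higher than in GFD-Ptch (SE 0.10, adjusted p = 0.00116).

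**Figure D3:**
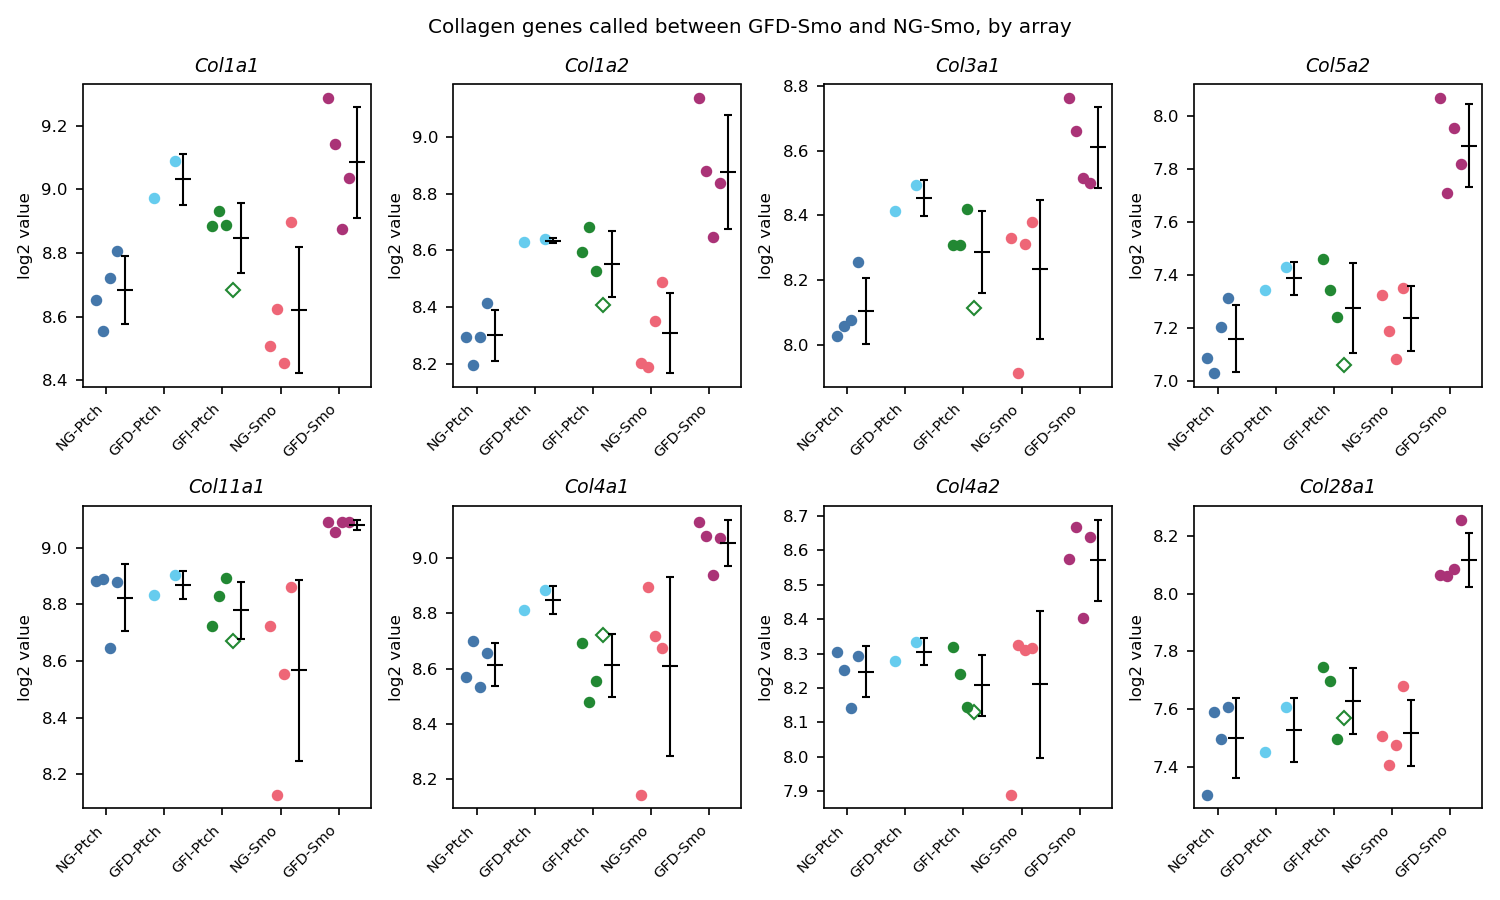
Log2 values on each array of the 8 collagen genes called between GFD-Smo and NG-Smo, with the mean and SD of each group as a bar; the open diamond is the transplanted tumour. In every panel except Col1a1 the GFD-Smo arrays lie above all NG-Smo arrays.

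In all, 11 members (20.4%) passed the test between GFD-Smo and NG-Smo, all higher in GFD-Smo, against 5.31% of all genes called in either direction and 2.81% called higher. They were 3 laminin genes (Lama2, Lamb1, Lamb2) and 8 collagen genes (Col1a1, Col1a2, Col3a1, Col5a2, Col11a1, Col4a1, Col4a2, Col28a1). The arrays did not overlap for 10 members, all higher in GFD-Smo, against 5.99% of all genes. Without both arrays that stood apart, the 11 calls held and Col26a1 (0.38, adjusted p = 0.025), Col15a1 (0.33, 0.0405), Col6a3 (0.28, 0.0312) and Lamc3 (0.24, 0.0127) were called higher as well. Of these, Col26a1 also passed without NG-Smo replicate 4 alone (0.0459). Over all 54 members, 34 had a difference above 0 (46.1% of all genes did), and the median difference was 0.06, against -0.01 over all genes. Of the 11 calls, 8 held in all 27 alternative analyses, and those of Col3a1, Col4a1 and Col4a2 did not. Leaving out GFD-Smo replicate 2 or 3, whose Y-linked level went against the label, ended calls of these 3 genes only. In bulk tumour RNA, more cells of a type that makes matrix and more matrix RNA per cell cannot be told apart.

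Markers of other cell types moved between the same groups. The mean log2 level of 10 astrocyte markers was 11.24 to 11.34 in GFD-Smo and 9.61 to 10.15 in NG-Smo, and 5 of the 10 (Gfap, Aqp4, Aldh1l1, Gja1, Gjb6) were called higher. For 12 fibroblast and meningeal markers it was 8.20 to 8.55 against 7.97 to 8.17, with none called. For 12 muscle markers it was 7.46 to 7.70 against 6.96 to 7.38, with none called. For 12 microglia and macrophage markers it was 9.47 to 9.68 against 9.87 to 9.999, with Aif1, Ctss and Lyz2 called lower. These 4 lists did not overlap between the groups. The 13 endothelial markers overlapped, at 8.24 to 8.54 against 7.98 to 8.54, with Kdr called higher. The 12 pericyte markers overlapped at 8.11 to 8.27 against 7.88 to 8.29, with Pdgfrb and Notch3 called higher. The lists of choroid plexus (7.52 to 9.21 against 7.19 to 7.96, with Clic6 called higher), oligodendrocyte lineage (9.74 to 10.14 against 9.21 to 10.36) and neuron genes (10.55 to 10.97 against 10.37 to 10.97) overlapped as well. The part of any of these cell types in the differences of the members was not tested.

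The genes that work with collagens and laminins were taken from lists by role. Between GFD-Smo and NG-Smo, 5.31% of all genes were called and 2.81% were called higher, the shares to set beside the counts below. Of 14 other basement membrane genes, 4 were called higher in GFD-Smo than in NG-Smo. Nid1, a nidogen that joins laminin to collagen IV, was 10.93 ± 0.20 (SD, n = 4) in GFD-Smo and 9.55 ± 0.55 (n = 4) in NG-Smo, a difference of 1.38 (adjusted p = 0.00218). Agrn, a heparan sulfate proteoglycan that binds laminin, differed by 0.62, Nid2 by 0.40 and Egflam by 0.29. Of 17 receptors, 2 were called higher: Itga6, an integrin chain of laminin receptors, by 1.14 (adjusted p = 0.000225), and Itga2, of a collagen receptor, by 0.39. The chain they share in several receptors, Itgb1, differed by 0.12 (SE 0.09) and was not called.

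Of 25 genes for collagen folding, processing and crosslinking, 5 were called higher and none lower. Pcolce2 and Pcolce, enhancers of procollagen trimming, differed by 1.13 and 0.52. The prolyl hydroxylase gene P4ha3, the lysyl hydroxylase gene Plod1 and P3h4, of the lysyl hydroxylation machinery, differed by 0.78, 0.56 and 0.87. Of 15 interstitial matrix genes, 3 were called higher, Vtn by 1.05, Fmod by 0.88 and Postn by 0.70. Of 16 proteases and inhibitors, Mmp11 was called higher by 0.42, and Mmp3 and Timp1 fell by 1.64 and 0.96. The median differences of these lists were 0.21, 0.10, 0.10, 0.30 and -0.18 for basement membrane, receptors, folding, interstitial matrix and proteases, against -0.01 over all genes.

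Within the Ptch tumours no member passed the test in any of 3 comparisons. In GFD minus NG the count was 0 (limma, against 0.0100% of all genes), and 11 members had an unadjusted p under 0.05, against 16.9% of all genes. Of the 54 members, 46 were above 0, against 58.1% of all genes, with a median of 0.18 against 0.04. In 21 members both GFD-Ptch arrays lay above all NG-Ptch arrays (20.6% of all genes did so). Counting Lamb2, which lay below, the groups were apart for 22 members, against 34.6% of all genes. The lowest p was that of Lama3, with a difference of 0.28 (SE 0.08, adjusted p = 0.176), and Col8a1, a short-chain collagen of vessel linings, had the largest difference, 0.48 (SE 0.24, adjusted p = 0.309). Type I and III collagen genes differed by 0.35 (Col1a1), 0.33 (Col1a2) and 0.35 (Col3a1), each with an SE of 0.12 and none called. Sex, read from the Y-linked level, went with subtype in GFD minus NG and cannot be told apart from it.

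In GFI minus NG, 0 members were called (0% of all genes), and 5 had an unadjusted p under 0.05 (8.53% of all genes). Of the members, 45 were above 0 (58.6% of all genes), with a median of 0.09 against 0.02. The groups were apart for Lama2 and Col25a1, both higher in GFI-Ptch, and for 4.86% of all genes. The largest difference was -0.72 for Col12a1, a FACIT collagen of tendons and ligaments (SE 0.27, adjusted p = 0.472). Its values were 8.65, 8.95, 8.04 and 9.11 in NG-Ptch and 7.51, 7.68, 8.41 and 8.28 in GFI-Ptch, so the groups overlapped. In GFI minus GFD, 0 members were called (0.00502% of all genes), and 1 had an unadjusted p under 0.05 (9.79% of all genes). Of the members, 9 were above 0 (43.2% of all genes), and Col1a1 and Col4a1 were lower without overlap (9.48% of all genes). These 3 comparisons share arrays with each other. The mean level of endothelial markers was 8.26 to 8.31 in GFD-Ptch against 7.81 to 8.23 in NG-Ptch, and that of astrocyte markers 8.77 to 9.03 against 9.90 to 9.96. Microglia markers were at 8.83 to 9.19 against 9.30 to 9.77, with 0 of 12 above 0, and oligodendrocyte markers at 8.70 to 8.90 against 9.39 to 9.85, with 1 of 9 above 0. Neuron and granule neuron progenitor markers were at 10.61 to 10.75 in GFD-Ptch against 10.81 to 10.96, with 5 of 12 above 0. In GFI-Ptch these neuron markers were at 10.23 to 10.605, with 2 of 12 above 0 against NG-Ptch. In GFI minus NG the median of the muscle markers was 0.65, with 11 of 12 above 0, and that of the oligodendrocyte markers -0.79, with 3 of 9 above 0. Both medians include the transplanted tumour. Without it the muscle markers were at 6.93 to 7.08 in GFI-Ptch, against 6.92 to 7.15 in NG-Ptch. The oligodendrocyte markers were then at 8.93 to 9.695 against 9.39 to 9.85, so both lists overlapped. The part of these lists was not tested. No gene of the partner or marker lists was called in these comparisons.

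The same subtype names in different models were then compared. Between NG-Smo and NG-Ptch, 3 members were called, Lama2, Lama3 and Lama5, all higher in NG-Smo, against 1.04% of all genes in either direction and 0.607% higher. The arrays did not overlap for these 3 members (2.97% of all genes were higher without overlap). No collagen gene was called, and Col18a1, the precursor of endostatin in vessel basement membranes, had the largest collagen difference, -0.50 (SE 0.19, adjusted p = 0.32). Among the partner genes Postn (0.79) and the collagen receptor gene Lair1 (0.62) were called higher. The microglia markers were at 9.87 to 9.999 in NG-Smo against 9.30 to 9.77 in NG-Ptch, with Aif1 and Cx3cr1 called higher and all 12 above 0. All 13 endothelial markers (7.98 to 8.54 against 7.81 to 8.23) and all 12 pericyte markers (7.88 to 8.29 against 7.82 to 8.14) were above 0 as well, with none called and with overlap between the groups. The 12 fibroblast and meningeal markers were at 7.97 to 8.17 in NG-Smo against 7.80 to 7.96 in NG-Ptch, without overlap and with none called. Of these 12, 5 were above 0, with a median of -0.02. Other lists went the other way. Of the neuron and granule neuron progenitor markers 2 of 12 were above 0 (median -0.24), and of the choroid plexus markers 1 of 8 (-0.22). Among the genes of the tissue and of Hedgehog signalling it was 2 of 11 (-0.31). For astrocyte, oligodendrocyte and muscle markers it was 5 of 10, 6 of 9 and 10 of 12. None of these 6 lists held a called gene. The part of these lists was not tested. Between GFD-Smo and GFD-Ptch, 6 members (11.1%) were called, against 15.6% of all genes. Higher were Lama2, Lamb2, Lamc1, Col28a1 and Col5a2 (8.50% of all genes were called higher), and lower was Col10a1 (7.10%). Col10a1, a collagen of hypertrophic cartilage, was 7.04 and 7.04 in GFD-Ptch and 6.74, 6.68, 6.65 and 6.56 in GFD-Smo, a difference of -0.39 (SE 0.11, adjusted p = 0.0253). The groups did not overlap, yet the call ended without either GFD-Ptch array (0.0998 without replicate 1 and 0.156 without replicate 2), and likewise without replicate 3 (0.051) or replicate 4 (0.0579) of GFD-Smo. Of the members, 19 were above 0 (39.2% of all genes) and 30 did not overlap (57.1% of all genes). Both GFD-Ptch arrays and GFD-Smo replicate 2 had the high Y-linked level and the other GFD-Smo arrays did not, so sex was uneven here. The split of the calls, 5 higher and 1 lower, was 5 and 4 after quantile normalization and 8 and 1 after median centring. Without both arrays that stood apart, Lama1 (0.47, adjusted p = 0.0301) was called higher and Col11a2 (-0.28, 0.0163), Col20a1 (-0.33, 0.0447) and Col7a1 (-0.28, 0.0464) lower besides these 6.

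Around them, Nid1 was 1.84 higher in GFD-Smo than in GFD-Ptch, Agrn 0.95 and Sparc, a collagen-binding glycoprotein, 1.06, while Tgfbi fell by 1.08 and Papln by 0.71. These were the 3 called higher and 2 called lower of 14 other basement membrane genes. Of 17 receptors, 3 were called higher, the integrin chains Itga6 (1.39), Itgb5 (1.30) and Itgb1 (0.40). Of 15 interstitial matrix genes, 4 were called higher. Tnc, the tenascin of glial and tumour matrix, was 2.31 higher, Postn 1.45, Vtn 1.25 and Fmod 0.97. Of 25 folding and crosslinking genes, 7 were called higher and 1 lower. Of 16 proteases and inhibitors, Mmp11 and Timp4 were called higher. Over all genes, 8.50% were called higher and 7.10% lower in this comparison, 15.6% in all. Of the 10 astrocyte markers 9 were called higher, and their mean level was 11.24 to 11.34 in GFD-Smo against 8.77 to 9.03 in GFD-Ptch. The fibroblast and meningeal markers were at 8.20 to 8.55 against 7.76 to 7.92 and the muscle markers at 7.46 to 7.70 against 7.02 to 7.16, with Slc6a13 called higher and no other. The microglia markers were at 9.47 to 9.68 against 8.83 to 9.19, with 5 called higher (Csf1r, Cx3cr1, Tyrobp, C1qa, P2ry12), and the oligodendrocyte markers at 9.74 to 10.14 against 8.70 to 8.90, with 3 called higher (Olig1, Cspg5, Ptprz1). Of the pericyte markers, which overlapped (8.11 to 8.27 against 8.07 to 8.13), Pdgfrb, Rgs5 and Notch3 were called. The endothelial markers overlapped (8.24 to 8.54 against 8.26 to 8.31), with 1 called higher and 1 lower (Kdr and Vwf). The choroid plexus markers did not overlap (7.52 to 9.21 against 7.31 to 7.45), with Clic6 called higher. The neuron markers overlapped (10.55 to 10.97 against 10.61 to 10.75), with 2 called higher and 2 lower among Neurod1, Rbfox3, Nefl and Nefm. The part of these in the differences of the members was not tested.

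Whether GFD minus NG differed between the models was tested as an interaction, which uses the same arrays as the comparisons above. It called 3 members, all larger in Smo, against 3.81% of all genes in either direction and 2.40% larger in Smo. For Lama2 the difference of differences was 0.97 (SE 0.21, adjusted p = 0.0201), from 1.03 in Smo and 0.06 in Ptch. For Lamb2 it was 0.94 (SE 0.20, adjusted p = 0.0199), from 0.58 in Smo and -0.36 in Ptch. For Col28a1 it was 0.57 (SE 0.13, adjusted p = 0.0244), from 0.60 in Smo and 0.03 in Ptch. These calls rest on the GFD-Ptch pair: without its replicate 2 the adjusted p was 0.158 for Lama2, 0.0795 for Lamb2 and 0.0566 for Col28a1. Without its replicate 1 it was 0.0769 for Lamb2 and 0.109 for Col28a1, and without NG-Ptch replicate 2 it was 0.0525 for Col28a1. With the gender label in the model none of the 3 was called (0.136, 0.0976 and 0.17). That label was ND on 5 arrays, which the model took as a level of its own, and went against the Y-linked level on 3. Since sex went with subtype between GFD-Ptch and NG-Ptch, the interaction cannot be told apart from a difference by sex. Without both arrays that stood apart, Lamb1 was called as well (0.84, adjusted p = 0.0415).

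For the other 8 genes called between GFD-Smo and NG-Smo the interaction was not called. Lamb1 had 0.78 (SE 0.24, adjusted p = 0.0813), which passed without the transplanted tumour (0.0481). The type I and III collagen genes had 0.12 for Col1a1 (SE 0.16), 0.23 for Col1a2 (SE 0.15) and 0.03 for Col3a1 (SE 0.16). For these fibrillar genes the GFD minus NG difference was thus positive in both models, called in Smo and not in Ptch, with no difference between the models past the threshold. Of the partner genes, the interaction called Nid1 (1.60), Itga6 (1.31), Pcolce2 (1.57), P3h4 (0.95) and Plod1 (0.76) higher and Papln (-0.63) lower. It also called 7 of the 10 astrocyte markers, all larger in Smo, with a list median of 2.42 against -0.06 over all genes.

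**Figure D4:**
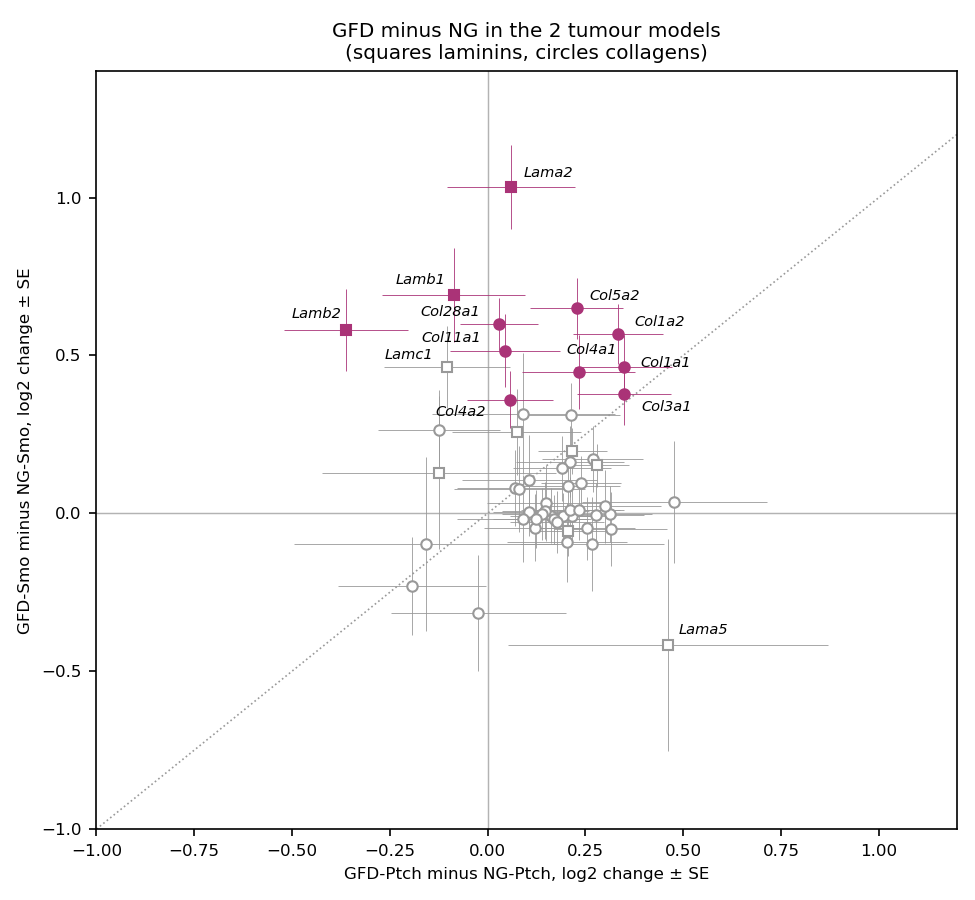
GFD minus NG difference in the Ptch tumours (x axis, log2) against that in the Smo tumours (y axis, log2) for the 54 collagen and laminin genes, with SE bars and filled symbols for the 11 genes called in Smo. Lama2, Lamb2 and Col28a1 stand above the diagonal, Lamb2 at -0.36 on the x axis, while Col1a1, Col1a2 and Col3a1 lie above 0 on both axes.

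A common shift of many members within single arrays ran beside these group differences. NG-Smo replicate 4 was the highest of its group in 43 of 54 members (79.6%, against 40.2% of all genes), and GFD-Smo replicate 1 in 38 (70.4%, against 28.2%). NG-Ptch replicate 5 was the highest in 37 (68.5%, against 28.2%), and GFD-Ptch replicate 2 exceeded replicate 1 in 43 (79.6%, against 52.6%). The transplanted tumour was the lowest of GFI-Ptch in 42 (77.8%, against 45.1%). The median deviation of the members from their own means ran from -0.18 in NG-Smo replicate 3 to 0.19 in GFD-Ptch replicate 2, while that of all genes stayed between -0.03 and 0.03. Shifts of this size are close to the differences of many collagen genes between groups, and the part of such a shift in those differences was not tested. Of the 54 members, 32 had their highest group mean in GFD-Ptch (40.0% of all genes) and 16 in GFD-Smo (21.7%).

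**Figure D5:**
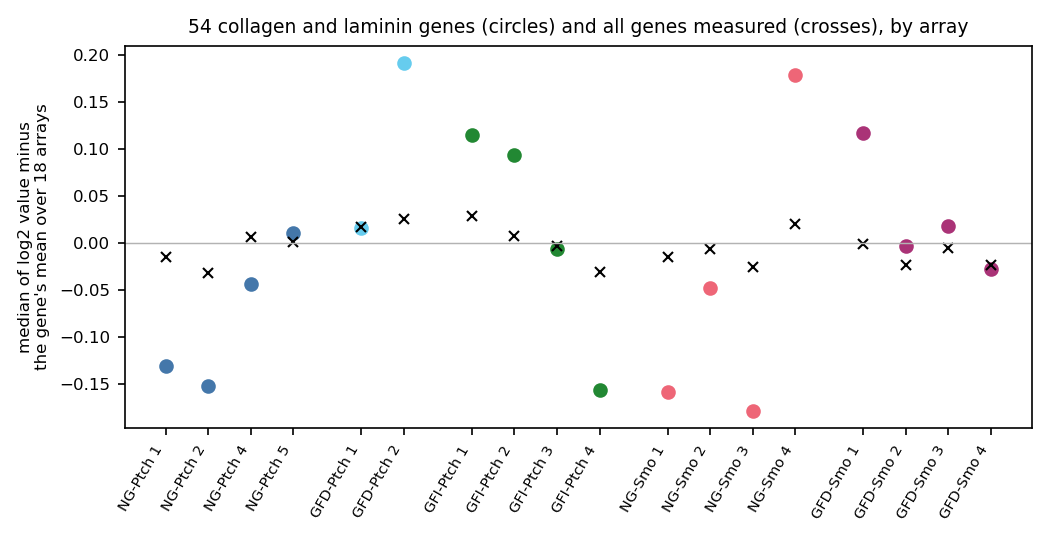
Median deviation of the 54 members (circles) and of all genes measured (crosses) from each gene's mean over 18 arrays, per array, in log2 units. The members run from -0.18 to 0.19 and differ between replicates of one group, most in NG-Smo, while all genes stay within 0.03 of 0.

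The transplanted tumour departed from the rest of GFI-Ptch in several members in opposite directions. Lama5 was 10.65 there against 8.74 to 9.13 on the other 3 arrays, and Lamc1 9.56 against 9.10 to 9.38. Lama1 was 7.52 against 8.77 to 9.07, and Col15a1, a collagen of the outer basement membrane, 7.81 against 8.37 to 8.42. Col25a1, a membrane-anchored collagen of neurons and muscle, was 7.86 against 7.42 to 7.53, and Col9a3, of cartilage, 9.96 against 9.22 to 9.52. The mean level of the 12 muscle markers was 9.53 in this tumour and 6.93 to 7.08 on the other GFI-Ptch arrays, and its part in these values was not tested. As a single array, this tumour has no replicate.

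The families without any call on all 18 arrays were the 9 FACIT genes, the 4 transmembrane genes and the 2 multiplexins. Without both arrays that stood apart, Col15a1, a multiplexin, and Col20a1, a FACIT collagen, were called in pairwise comparisons as given above, and the F test called 30 members, among them Col14a1, Col16a1, Col22a1 and Col23a1. Among all 38 members called in no test on all arrays, 35 collagen and 3 laminin genes, pairwise differences ran from -0.72 to 0.48, and the median range over arrays was 0.55, against 0.56 for all genes. Col18a1 spanned 7.90 to 9.09, highest in NG-Ptch replicate 5 and lowest in NG-Smo replicate 3. Col20a1 was 8.81 in NG-Smo replicate 4 and 7.64 to 8.26 on every other array. Col8a1 was 8.28 in GFD-Smo replicate 2 and 7.23 to 7.72 in the other GFD-Smo arrays. The type VI collagen genes Col6a1 and Col6a2, of beaded filaments in many tissues, had group means of 8.36 to 8.62 and 8.21 to 8.33.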

How the data were processed

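Total RNA was extracted with Trizol from medulloblastoma tissue, converted to biotin-labelled cDNA and hybridised to Affymetrix mouse Gene ST 1.0 arrays, per the labels' protocols. The authors deposited log2 values for 35556 probe sets on 18 arrays, with no value missing. Partek 6.6 is named in the submitters' processing notes. Background correction, probe summary and normalization between arrays are not given in the sources used here, and array medians of 7.74 to 7.87 do not settle them. The base 2 was read from the values: they reach 14.32, and the natural log of a 16-bit intensity is at most 11.09.

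Of the probe sets, 21789 had exactly 1 gene symbol in the platform annotation, 1621 had several and 12146 had none. A gene was represented by its probe set with the highest mean, which gave 19938 genes. Of the members, 2 (Col6a5, Col6a6) had more than 1 probe set. No gene was filtered and no value rescaled. The number of arrays limits the precision.

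A mean for each of 5 groups was fitted over all 18 arrays with limma 3.58.1 in R 4.3.3 (13 residual and 2.448 prior degrees of freedom). Two-sided moderated tests of 6 pairwise comparisons, 1 interaction and an F test received a Benjamini-Hochberg adjustment over all 19938 genes, with a threshold of 0.05. The fit was tested on simulated data. The labels do not say that replicates were separate animals, so p-values reflect the spread between these arrays alone, which may be technical. Replicate numbers were used as names: deviations of same-numbered arrays correlated at -0.04 on average (29 pairs). Alternatives were quantile normalization, median centring, a filter on dim genes, the gender label, the replicate number, array weights, probe set means, a trended robust prior, leaving out both arrays that stood apart, and leaving out each array.

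The members and the gene lists were chosen with earlier results of these data known. Members called in a comparison were described in full, then those with the largest changes. A further part of the rule, on the most abundant chain of each kind, was not applied because levels of different probe sets cannot be compared. From other lists up to 4 genes were named, called ones first, with exceptions (Mmp and folding genes, Itgb1, marker genes) named after their values were seen. Promoter windows were taken from RefSeq (GRCm38.p6), which had 40 of the 54 members. Plots were drawn with Python 3.11.15.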

Additional observations from a re-analysis of the deposited data

Results flagged for a closer look

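In 12 of 216 sets of 4 arrays (5.56%, each the values of 1 member in 1 group), the highest or lowest array lay far from the other 3 by Dixon's criterion, and chance gives about 1 in 20. In NG-Ptch, Col11a1 was 8.64 in replicate 4 against 8.88 to 8.89, Col26a1 was 8.69 in replicate 5 against 8.36 to 8.42, and Col4a4 was 7.58 in replicate 2 against 7.68 to 7.69. In GFI-Ptch, Col15a1 was 7.81 in the transplanted tumour against 8.37 to 8.42.

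In NG-Smo there were 5 such values, in replicates 1, 2 and 4. Col4a2 was 7.89 and Col6a1 8.26 in replicate 1, against 8.31 to 8.32 and 8.71 to 8.79. Col3a1 was 7.91 in replicate 2 against 8.31 to 8.38. Col13a1 was 8.17 and Lamb1 7.90 in replicate 4, against 7.66 to 7.74 and 7.65 to 7.67. In GFD-Smo, Col11a1 was 9.06 in replicate 2 against 9.09 on each other array, Col13a1 was 8.02 in replicate 1 against 7.85 to 7.86, and Col28a1 was 8.26 in replicate 4 against 8.06 to 8.08.

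The GFD minus NG difference was larger in Smo than in Ptch tumours by 0.97 for Lama2, 0.94 for Lamb2 and 0.57 for Col28a1, by the interaction test in limma. Each of these values rests on 2 GFD-Ptch arrays, which also differ from the NG-Ptch arrays in sex by the Y-linked level.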

How the results depend on the processing

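In the comparisons within Ptch tumours, 0 members were called under all 27 alternatives. Between GFD-Smo and NG-Smo the count of 11 ranged from 8 to 12 as each array was left out, and was 8 with the replicate block, which paired arrays by number, and 15 without both arrays that stood apart. Between NG-Smo and NG-Ptch the count of 3 fell to 1 with median centring, 1 with a trended robust prior and 0 with the replicate block, and ranged from 1 to 3 as each array was left out. Between GFD-Smo and GFD-Ptch the count of 6 was 10 without both arrays and ranged from 3, without GFD-Ptch replicate 2, to 8. The interaction count of 3 was 0 with the gender label and ranged from 0, without GFD-Ptch replicate 2, to 4. The F test count of 14 was 24 with array weights, 8 with the replicate block and 30 without both arrays, and ranged from 7 to 19 as each array was left out. The labels do not say what the replicate numbers stand for, so whether a call lost with that block is a weaker effect cannot be told. For single members, no alternative turned the sign of a called difference. Over all comparisons, the F test included, the 37 calls on all arrays were lost 136 times under the 27 alternatives, and other members were called 71 times: 5 members between GFD-Smo and NG-Smo, 9 between GFD-Smo and GFD-Ptch, 3 in the interaction and 18 in the F test.

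Over all genes the counts moved more: from 2 to between 0 and 689 for GFD minus NG in Ptch, from 0 to up to 180 for GFI minus NG, from 1 to between 0 and 64 for GFI minus GFD, from 1058 to between 643 and 1740 for GFD-Smo against NG-Smo, from 208 to between 34 and 1169 for NG-Smo against NG-Ptch, from 3110 to between 997 and 5958 for GFD-Smo against GFD-Ptch, from 759 to between 188 and 1484 for the interaction, and from 2739 to between 1719 and 7923 for the F test. The cause was not tested. The percentages of all genes called therefore hold for the fit of all 18 arrays only.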
